A study of Mus musculus with 3 samples.

Results

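The genes described here are 9 genes known for setting fetal from adult blood stem cells apart: Lin28a, Lin28b, Hmga1, Hmga2, Igf2bp1, Igf2bp2, Igf2bp3, Arid3a and Sox17. They were taken by symbol, and all 9 have a row among the 24421 gene rows of the deposited tables. RNA came from haematopoietic stem and progenitor cells (HSPCs), the marrow cells that feed all blood lineages, sorted for lack of lineage markers and for presence of c-Kit and Sca-1. The 3 libraries form 1 group, the controls: C57BL/6 mice with both alleles of Cic, the gene of the repressor Capicua, flanked by loxP sites, and with tamoxifen given. The labels name no Cre transgene, age or number of mice for this group. Nothing in them ties each library to an animal of its own, so every p-value measures only the spread between these libraries, which may be technical. The other mouse group of the series was not analysed here, and no contrast of genotypes is made. Without fetal or age-matched samples, the values are levels in these cells and not a fetal to adult change.

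In the fetal liver, stem cells divide fast, and after birth they turn to the slower adult state. The RNA-binding proteins Lin28a and Lin28b are known to start this axis in fetal cells by blocking the maturation of let-7 microRNAs. let-7 in turn lowers messenger RNAs with matching sites in the 3′ untranslated region (UTR), among them those of the chromatin protein Hmga2, the Igf2bp RNA-binding proteins and the DNA-binding protein Arid3a. Sox17 is a transcription factor that fetal, but not adult, blood stem cells need.

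The let-7 family and its matches in these genes are printed first, since 8 of the 9 genes, all but Sox17, hold a match. In RefSeq sequences (GRCm38.p6), 10 mature family names, miR-98 among them, share the seed GAGGUAG (bases 2 to 8, in capitals), and 2 others, let-7j and miR-202-3p, have GAGGUAU. The examples below are the best known member, the member whose hairpin row had the most counts here, and miR-98.
mmu-let-7a-5p: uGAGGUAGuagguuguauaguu
mmu-let-7g-5p: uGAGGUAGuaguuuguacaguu
mmu-miR-98-5p: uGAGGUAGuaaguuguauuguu

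The letters that pair with this seed are CTACCTC, or CTACCTCA with the A that often follows. They were searched on the transcript strand of the longest 3′ UTR that GENCODE M21 gives a coding transcript of each gene. At least 1 match was found in 8 of the 9 genes, against 9.27% of all 20090 genes with a 3′ UTR and 13.2% of the 11123 genes whose 3′ UTR is as long as these (785 to 6337 bases). The 8-letter form was found in 7 of 9, against 3.17% of all genes. Lin28b, Hmga2 and Igf2bp1 held 4 matches each, Lin28a and Arid3a 2, and Hmga1, Igf2bp2 and Igf2bp3 1. Sox17, with the shortest 3′ UTR of 785 bases, held none. Several of these genes are on the list because they are known let-7 targets, so the count describes the list and is no independent evidence. Of the 9 other genes listed as let-7 targets, Nras, Cdc25a and Cbx2 held 1 match and Igf1r 2.

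The matches are shown for the 4 genes that were well counted here and for Lin28b, with the matching letters in capitals (mm10, all in the 3′ UTR). Those of Hmga2 lie on the minus strand at chr10:120364217-120364246, chr10:120362980-120363009, chr10:120362542-120362571 and chr10:120361684-120361713. Those printed of Igf2bp3 (chr6:49086780-49086809, minus), Igf2bp2 (chr16:22059466-22059495, minus), Arid3a (chr10:79953895-79953924, plus, the first of its 2) and Lin28b (chr10:45381015-45381044, minus, the first of its 4) are of the 8-letter form. The second match of Arid3a, of the 7-letter form, is not printed.
Hmga2 site 1: gccgacattcaatttCTACCTCAgcatcag
Hmga2 site 2: ccccactcctcaataCTACCTCtgaatgct
Hmga2 site 3: ctgatttgcaaggaaCTACCTCcacacttc
Hmga2 site 4: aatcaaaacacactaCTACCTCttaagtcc
Igf2bp3 site 1: tgcatttttactcaaCTACCTCAggtattc
Igf2bp2 site 1: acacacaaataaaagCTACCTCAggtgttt
Arid3a site 1: aaggcaagtttctttCTACCTCAggtcttt
Lin28b site 1: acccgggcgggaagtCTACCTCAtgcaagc

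**Figure D1:**
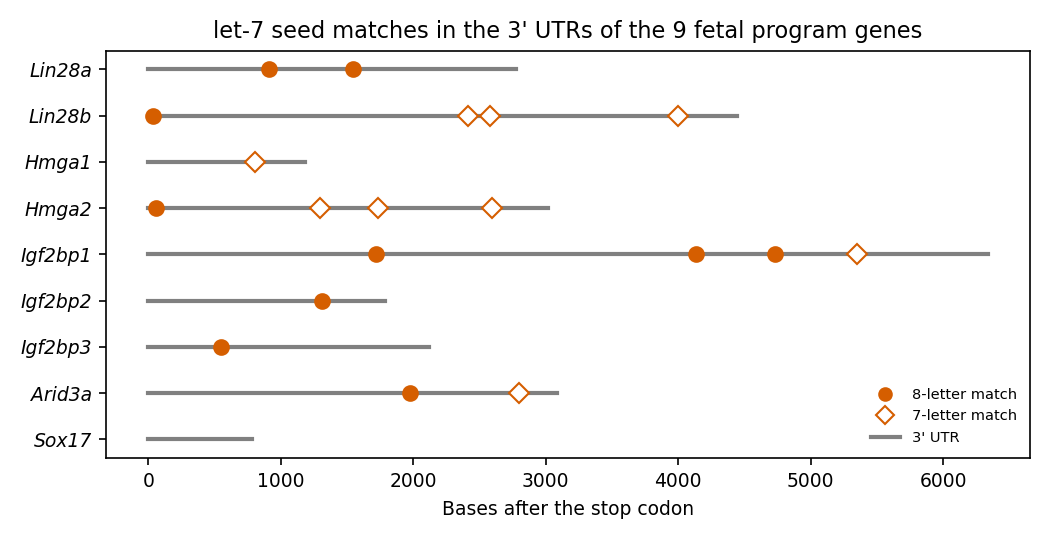
Positions of let-7 seed matches along the 3′ UTR of each gene, in bases after the stop codon; grey lines are the 3′ UTRs, filled points 8-letter and open diamonds 7-letter matches. Igf2bp1 has the longest 3′ UTR (6337 bases) with 4 matches, and Sox17 has none.

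Of the 9 genes, 4 reached a mean of 1 CPM (the count over the library's total gene count, scaled to 1000000), while 53.1% of all genes did. Hmga2, Igf2bp3 and Arid3a lay between 21.6 and 27.4 CPM and Igf2bp2 at 4.14 CPM. Lin28a, Hmga1 and Lin28b had at most 24 counts in any library, and Igf2bp1 and Sox17 had none. The totals of all gene counts were 30718562, 25097769 and 30032593 in libraries 1, 2 and 3. A count of 0 allows up to 0.0977, 0.120 and 0.0999 CPM in these libraries (3 counts each), for counting error only. Bulk RNA cannot tell fewer cells that use a gene from less RNA in each cell. Kit and Ly6a, which encodes Sca-1, were counted in every library, at 826 ± 71.0 and 103 ± 9.50 CPM (SD, n = 3).

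**Figure D2:**
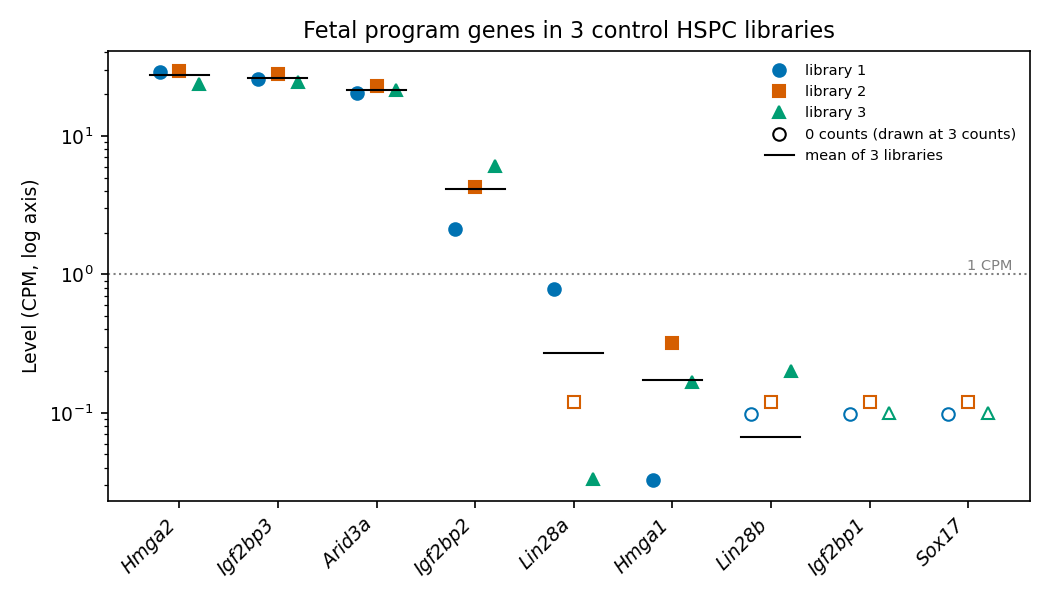
Level of each gene in each library, in CPM on a log axis; points are libraries, bars the mean of 3, open points libraries with 0 counts drawn at the level of 3 counts. Hmga2, Igf2bp3 and Arid3a lie above 20 CPM in every library, Igf2bp2 between 2.12 and 6.03 CPM, and the other 5 genes below 1 CPM.

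The Lin28 genes, at the head of the axis, were nearly uncounted. Lin28b (chromosome 10, 45376620 to 45486395, mm10, ENSMUSG00000063804.8) had 0, 0 and 6 counts in libraries 1, 2 and 3, the last being 0.200 CPM. Lin28a (chromosome 4, 134003330 to 134018841, ENSMUSG00000050966.9) had 24, 0 and 1 counts, or 0.781, 0 and 0.0333 CPM. Library 1 thus held nearly all Lin28a counts and library 3 all Lin28b counts. The pooled level over the 3 libraries was 0.291 CPM for Lin28a (exact Poisson 95% interval 0.188 to 0.430) and 0.0699 CPM for Lin28b (0.0256 to 0.152), intervals that cover counting error only and not the spread between libraries. Without library 1, the mean of Lin28a fell from 0.272 to 0.0166 CPM, and without library 3 that of Lin28b was 0. An annotated antisense transcript, Gm13061, covers 234 exon bases of Lin28a. How the counting treated strand is not given in the sources used here, and reads of that transcript could not be told from those of Lin28a.

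Counts in the rows of the let-7 hairpins were as sparse. The 12 rows of let-7 and miR-98 hairpins summed to 51, 50 and 75 counts, 4 of them had none, and none reached a mean of 1 CPM. Mirlet7g was highest with 17, 8 and 50 counts. Libraries with inserts of 400 bp do not hold free mature microRNAs, so these rows say nothing of mature let-7. Of 10 genes listed for let-7 maturation and decay, 9 reached 1 CPM (median 99.1), beside 53.1% of all genes. Among them were the uridylyl transferases Zcchc6 and Zcchc11, which act on let-7 precursors, at 278 ± 25.4 and 247 ± 10.5 CPM, and Ago2, the protein that carries mature microRNAs, at 258 ± 28.8 CPM. The lowest were Tarbp2, the Dicer partner, at 12.8 ± 2.63 CPM and Trim71, a let-7 target of early embryos, with no count in any library.

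Hmga2, a small AT-hook chromatin protein that promotes self-renewal of fetal stem cells, was among the counted genes (chromosome 10, 120361275 to 120476469, ENSMUSG00000056758.14). It had 895, 735 and 713 counts, or 29.1, 29.3 and 23.7 CPM, with a mean of 27.4 ± 3.16 CPM (SD, n = 3). Libraries 1 and 2 lay together and library 3 below them, and 74.2% of all genes had a lower mean. Per kilobase of annotated exons its level was 4.04 CPM, below the median of 6.42 over the genes that reached 1 CPM, of which 36.9% lay lower. Of the annotated antisense RNAs in its locus, 1700006J14Rik shares 140 exon bases and 9230105E05Rik, with 41, 39 and 5 counts, shares none.

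Its relative Hmga1, an AT-hook protein of dividing cells, gave 1, 8 and 5 counts, or 0.0326, 0.319 and 0.166 CPM (chromosome 17, 27556497 to 27563674, ENSMUSG00000046711.16). This count is uncertain. Over its 17 annotated coding transcripts, from 52.1 to 87.2% of the 50-base words also occur in other annotated genes. Alignments to several places were set apart by the authors' counting in a category of their own, with at most 17.0% of the entries of a library, and are in no gene row. The difference of Hmga1 minus Hmga2 was -2.97 in log2(CPM per kilobase + 0.5) (SD 0.22), lower in 3 of 3 libraries, but this is a difference in uniquely placed reads. Other high-mobility-group genes were counted in every library, from Hmgb3 at 132 ± 27.0 CPM to Hmgb2 at 503 ± 52.8 CPM, with Hmgn1, Hmgb1 and Hmgn2 at 139, 410 and 429 CPM. All 5 share between 4.33 and 25.4% of their words with other genes.

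The 3 Igf2bp genes, whose proteins bind and stabilise messenger RNAs, stood apart from each other. Igf2bp1 (chromosome 11, 95957163 to 96005940, ENSMUSG00000013415.9) had no count in any library. Igf2bp2 (chromosome 16, 22059009 to 22163299, ENSMUSG00000033581.17) had 65, 107 and 181 counts, or 2.12, 4.26 and 6.03 CPM, with a mean of 4.14 ± 1.96 CPM. Igf2bp3 (chromosome 6, 49085223 to 49214957, ENSMUSG00000029814.10) had 790, 697 and 737 counts, or 25.7, 27.8 and 24.5 CPM, with a mean of 26.0 ± 1.64 CPM. Every library therefore put Igf2bp3 first and Igf2bp1 at 0.

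Per kilobase, Igf2bp2 lay 1.83 below Igf2bp3 (SD 0.40) in log2(CPM per kilobase + 0.5), lower in 3 of 3 libraries. With 3 counts as the floor of Igf2bp1 in each library, Igf2bp3 was at least 276-fold and Igf2bp2 at least 28.3-fold higher than it per kilobase. The Igf2bp3 count carries a limit of its own, since Malsu1, a gene of mitochondrial ribosome assembly, runs on the opposite strand into its last exon. They share 1529 exon bases, and 34.5% of the words of the 4345-base coding transcript of Igf2bp3 lie in the shared part. Malsu1 had 508, 532 and 651 counts. The counting also has a category for ambiguous reads, with 0.702, 0.666 and 0.800% of the entries of libraries 1, 2 and 3. Whether reads of the shared part went to Igf2bp3, to Malsu1 or to that category was not tested. The Igf2bp3 count may thus be too high or too low. The let-7 match of Igf2bp3 printed above lies outside Malsu1, whose end is at 49086751.

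Arid3a, a DNA-binding protein of stem cells and B cells, was the steadiest of the counted genes (chromosome 10, 79927043 to 79955018, ENSMUSG00000019564.12). It had 628, 572 and 646 counts, or 20.4, 22.8 and 21.5 CPM, with a mean of 21.6 ± 1.18 CPM and a highest value 1.11 times the lowest. None of its words occurs in another annotated gene. Its relative Arid3b lay at 15.5 ± 4.63 CPM, and Arid3c had no count. Per kilobase, Arid3a lay above Arid3b by 0.87 (SD 0.34) in log2(CPM per kilobase + 0.5), higher in 3 of 3 libraries, but by 0.14 (SD 0.39), within the spread, with the longest annotated transcript as the length. B cell genes, which mark cells that also use Arid3a, all reached 1 CPM (8 of 8), beside 53.1% of all genes. They summed to 77.4, 83.5 and 94.1 CPM. Their part in the Arid3a level was not tested.

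Sox17 (chromosome 1, 4490931 to 4497354, ENSMUSG00000025902.13) had no count in any of the 3 libraries. Of the related SoxF genes, Sox7 had 0, 0 and 2 counts and Sox18 52, 21 and 27 counts, or 1.69, 0.837 and 0.899 CPM. Per kilobase, Sox18 was at least 20.6-fold higher than the floor of Sox17 in each library. These factors are also genes of blood vessels. Of 12 endothelial markers, Sox7 and Sox18 among them, 8 reached 1 CPM, beside 53.1% of all genes. The sum of the 12 was 226, 199 and 181 CPM, none being at 0 in all libraries. Pecam1 (107 ± 5.57 CPM), Tek (25.2 ± 3.98), Emcn (24.8 ± 6.60), Vwf (24.2 ± 6.12) and Esam (15.8 ± 1.56), which blood stem and progenitor cells also express, were the highest in CPM. Lower were the vessel genes Kdr (59, 49 and 31 counts, mean 1.64 CPM) and Stab2 (36, 28 and 33 counts, mean 1.13 CPM). Plvap had 23, 11 and 16 counts. The vessel cadherin gene Cdh5 had 0, 14 and 7 counts, and Flt1, a receptor for vascular growth factor, had 5, 10 and 16.

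**Figure D3:**
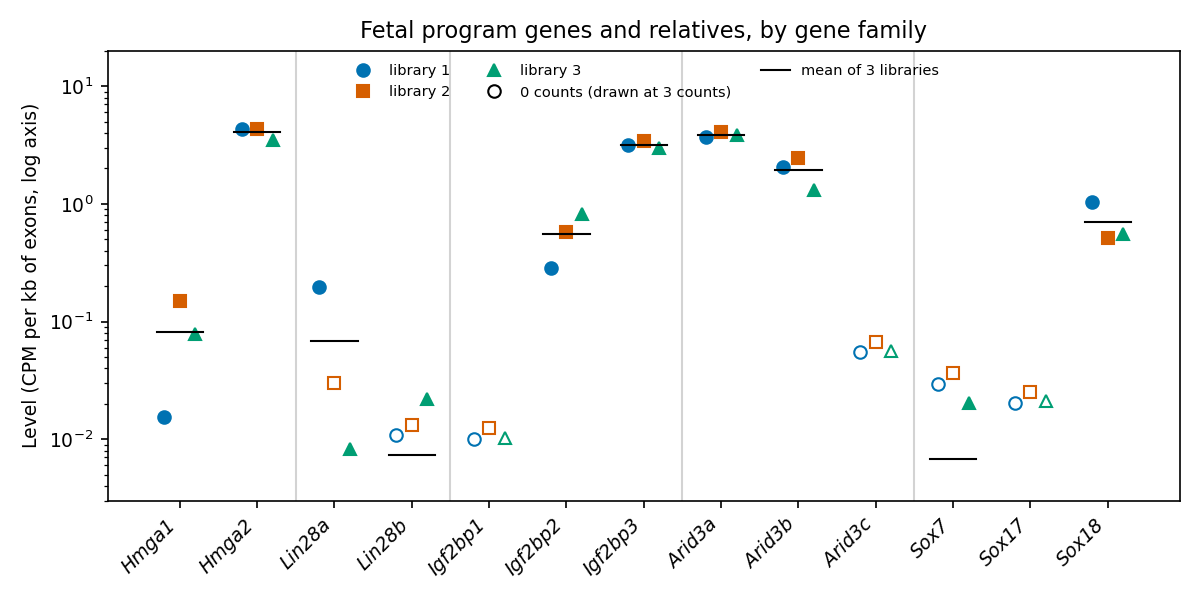
Level per kilobase of annotated exons of the 9 genes and of Arid3b, Arid3c, Sox7 and Sox18, on a log axis, grouped by family; points are libraries, bars means, open points libraries with 0 counts drawn at the level of 3 counts. Hmga2, Igf2bp3, Arid3a and Sox18 have the highest mean of the genes drawn in their groups, that of Sox18 being 0.705 CPM per kilobase. For Hmga1 beside Hmga2 this compares uniquely placed reads only.

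In order of mean CPM per kilobase the genes ran Hmga2 (4.04), Arid3a (3.88), Igf2bp3 (3.19), Igf2bp2 (0.559), Hmga1 (0.0812), Lin28a (0.0679), Lin28b (0.00735), then Igf2bp1 and Sox17 at 0. Hmga2 and Arid3a differed by 0.05 (SD 0.16) in log2(CPM per kilobase + 0.5), less than their spread, and library 3 had Arid3a first. With the longest annotated transcript as the length, Hmga2 was higher by 0.76 (SD 0.17). Arid3a exceeded Igf2bp3 by 0.25 (SD 0.06) in 3 of 3 libraries, but with that other length the difference was -0.52, so the order of the first 3 genes depends on the length used. The steps from Igf2bp3 down to Igf2bp2 (1.83, SD 0.40) and on to Hmga1 (0.84, SD 0.30) held in 3 of 3 libraries. The place of Hmga1 is that of its uniquely placed reads only, since 52.1 to 87.2% of its words per coding transcript occur in other genes. Neither Hmga1 and Lin28a (0.04, SD 0.42) nor Lin28a and Lin28b (0.15, SD 0.29) differed beyond their spread. With 3 libraries, the exact permutation test by sign flips (two-sided) cannot go below p = 0.25. That value was reached by 3 of 7 steps in this order (adjusted p = 0.583) and by 6 of 8 contrasts within the families (adjusted p = 0.333), all but Lin28b against Lin28a and Sox17 against Sox7.

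Between the libraries, Hmga2 and Igf2bp2 differed by more than read-counting noise, and Igf2bp3 and Arid3a did not pass that test. A chi-square test of the counts gave Benjamini-Hochberg adjusted p = 4.17e-05 for Hmga2, 1.90e-12 for Igf2bp2, 0.0729 for Igf2bp3 and 0.190 for Arid3a. It called 82.6% of the 12965 genes at 1 CPM or more, 82.4% of those between 20 and 30 CPM and 74.9% of those between 3 and 5 CPM (bands chosen after the levels were seen). Without library 1 it called 6660 of 12963 genes. The call for Hmga2 rested on library 3 (adjusted p = 0.937 without it), and Igf2bp3 passed without library 1 (adjusted p = 0.0389). A test of each gene's spread against genes of like abundance called none of the 4 (edgeR quasi-likelihood, adjusted p from 0.983 to 0.999), but it called only 0.00771% of all genes, so a missing call does not show a usual spread. For Igf2bp2 the estimated DESeq2 dispersion was 0.228, beside 0.121 on the trend. The other genes lay below their trend: Hmga2 at 0.0136 beside 0.0249, Igf2bp3 at 0.00136 beside 0.0258 and Arid3a at 1e-08 beside 0.0295. The unadjusted p-values of the edgeR test were 0.145 for Igf2bp2, 0.499 for Hmga2, 0.864 for Igf2bp3 and 0.947 for Arid3a. Under 0.05 lay 0 of 4, beside 593 of all 12965 genes tested, so 0 of 4 does not set these genes apart. The dispersion outliers of DESeq2, 30 of the 12965 genes, included none of the 4 either.

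Igf2bp2 had the widest range of the 4, with library 3 at 2.85 times library 1. Early granulocyte genes had the same order of libraries. Mpo, the myeloperoxidase gene, lay at 683, 1544 and 2403 CPM in libraries 1, 2 and 3, Elane at 24.7, 112 and 240 CPM, and Cebpa, a transcription factor of the granulocyte fate, at 10.1, 23.2 and 24.1 CPM. Ctsg and Prtn3 were in this order too, whereas the later granule genes Ngp, S100a8 and S100a9 were highest in library 1 and lowest in library 2. All 7 listed granulocyte genes reached 1 CPM, beside 53.1% of all genes, and their sum was 933, 1863 and 2972 CPM. Their part in the Igf2bp2 values was not tested. Hmga2, Igf2bp3 and Arid3a stayed within 1.23 times between the highest and the lowest library.

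**Figure D4:**
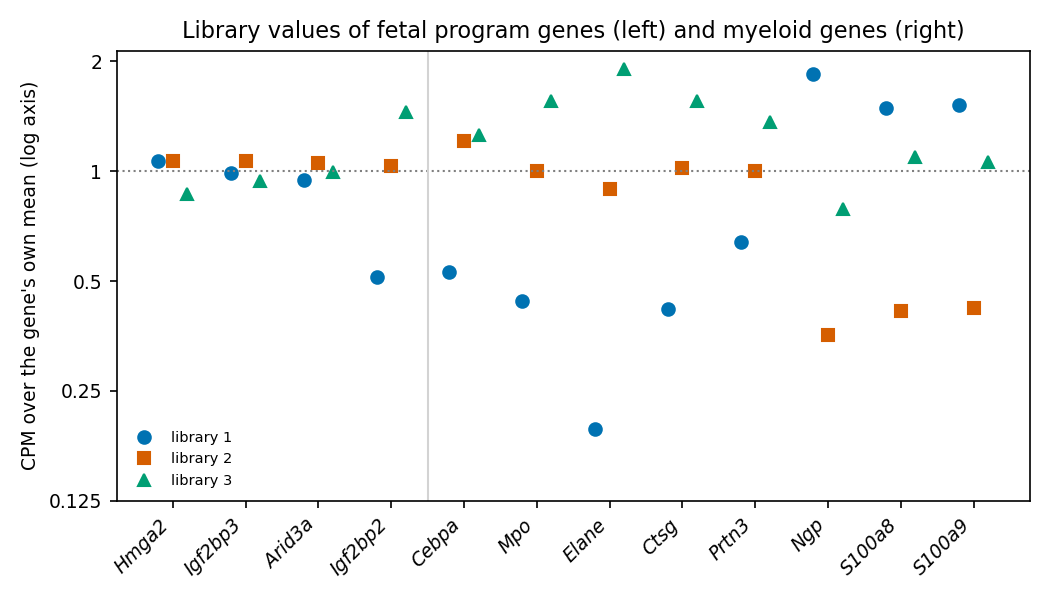
CPM in each library over the gene's own mean, on a log axis, for the 4 counted fetal program genes (left of the line) and Cebpa with 7 granulocyte genes (right). Hmga2, Igf2bp3 and Arid3a stay near 1, while Igf2bp2 is lowest in library 1 and highest in library 3, as are Mpo, Elane, Ctsg and Prtn3.

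Other genes of embryonic and fetal cells were mostly at or near 0. Of 10 listed, 2 reached 1 CPM, beside 53.1% of all genes. These were Plag1, a zinc finger activator of Igf2, at 25.7 ± 4.89 CPM and the fetal albumin gene Afp at 3.26 ± 1.38 CPM. Igf2, the fetal growth factor, had 19, 39 and 13 counts, and its imprinted neighbour H19 had 3, 3 and 0. The embryonic factor Sall4 and the embryonic globin genes Hbb-bh1, Hbb-y and Hba-x had no count in any library. Nor had Trim71, which is also in the list for let-7 maturation and decay. The median was 0.0362 CPM, beside 0.272 CPM for the 9 fetal program genes and 1.73 CPM for all genes.

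Genes of the adult stem cell and of the switch between the states were all counted. Over all genes, 53.1% reached 1 CPM, the share that stands beside each list count given here. All 9 adult stem cell genes passed 1 CPM (median 26.4), from the homeobox gene Hoxb5 at 3.95 ± 0.553 CPM and the cell cycle inhibitor gene Cdkn1c at 5.32 ± 3.10 CPM to Hlf at 679 ± 110 CPM. So did 6 of 6 regulators, among them Bcl11a, which silences fetal globin genes, at 263, 249 and 238 CPM in libraries 1, 2 and 3 and the Polycomb methyltransferase gene Ezh2 at 228 ± 11.7 CPM, with Cebpa the lowest at 19.1 ± 7.81 CPM. The let-7 targets outside the 9 genes all reached 1 CPM as well (9 of 9, median 328 CPM), with Cdk6 at 641 ± 10.5 CPM, Myc at 553 ± 14.9 CPM and Nras at 356 ± 12.7 CPM, and with the Polycomb gene Cbx2 at 33.8 ± 5.20 CPM and Ccnd1 at 42.1 ± 4.10 CPM as the lowest. CPM also grows with transcript length, so these lists are given by their counts and medians and not ranked.

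**Figure D5:**
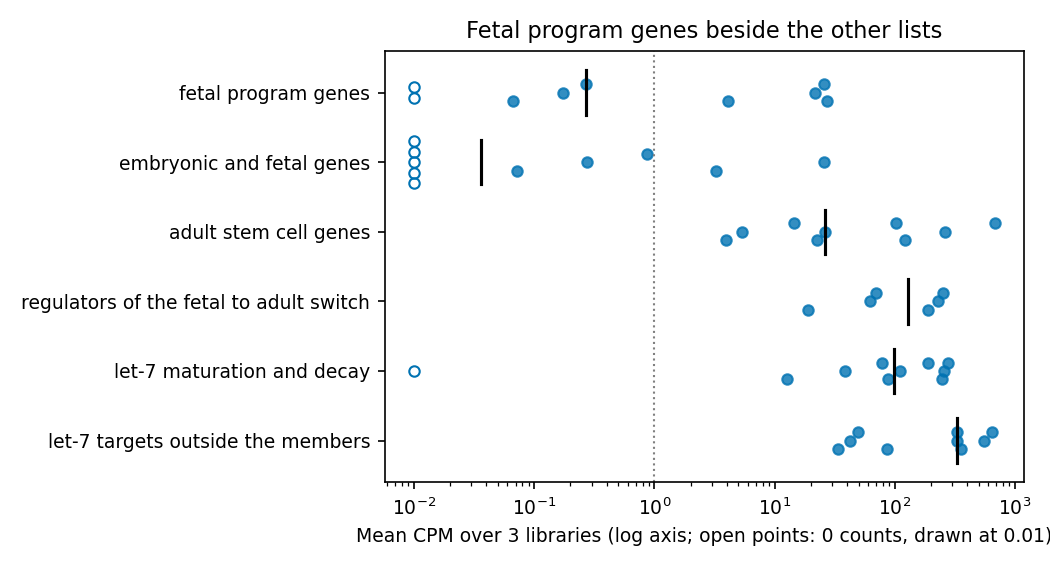
Mean CPM over 3 libraries of the 9 fetal program genes and of the other listed genes, on a log axis; filled points are genes, open points genes with 0 counts drawn at 0.01, black bars list medians, the dotted line 1 CPM. The fetal program genes and the embryonic and fetal genes spread across the 1 CPM line, with 4 of 9 and 2 of 10 above it, while every adult stem cell gene, regulator and other let-7 target lies above it.

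For each of the 4 counted genes, the 2 genes with the most similar levels over the 3 libraries were sought among 12965 genes, by the largest difference in log2(CPM + 0.5) in any library. Hmga2 was matched by B230354K17Rik (0.03) and Tmem104 (0.04), Arid3a by Bcs1l (0.03) and Eef1e1 (0.04), and Igf2bp3 by Zfp783 (0.05) and Zbtb40 (0.06). For Igf2bp2 the nearest were Wdr31 and Samd14, both 0.19 away. With 3 libraries, such closeness describes levels only.

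Capicua, the repressor the study concerns, binds the letters TGAATGAA and TGAATGGA, and TCAATGAA and TCAATGGA are close forms. RefSeq promoter windows (GRCm38.p6, 250 bases before to 50 after the start) were matched for 6 of the 9 genes, Lin28a, Lin28b, Hmga1, Hmga2, Igf2bp2 and Igf2bp3. None of their 7 windows held any of these letters on either strand, beside 3.84% of all 32851 windows. At that share, 7 windows would be likely to hold none, and those of Hmga1 overlap. The result therefore does not set these genes apart, and sequence outside the windows was not searched.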

How the data were processed

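The authors deposited raw read counts per gene for each library. Tools named in the submitters' processing notes are HTSeq, DESeq2 and TopHat2 2.0.9, with the build mm10. Which gene model and strand setting were used is not given in the sources used here. Per the labels' protocols, libraries began with 10 ng of RNA, amplified after priming at poly(A) tails and at random, so counts are not independent molecules. The 92 ERCC spike-in rows and 5 category rows were left out of totals and tests. CPM used plain gene totals, and logs a pseudocount of 0.5.

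Levels of different genes were compared per kilobase of merged GENCODE M21 exons (mm10), where 98.4% of symbols were found, by exact sign-flip tests. Libraries were compared by a chi-square test of each gene and by edgeR 4.0.16 (intercept only, TMM, robust), as an F test of each quasi-dispersion over the trend. Both used the genes averaging 1 CPM or more, with Benjamini-Hochberg adjusted p under 0.05, and were tested on simulated data. The 9 genes, the other lists and the tests were chosen with earlier results of these data known. The genes named were all 9, their relatives, the extremes of the other lists (up to 3 highest and 2 lowest in CPM), marker genes and the 2 nearest genes by level. A relative among these is not reported here. Malsu1, the antisense RNAs and the hairpin rows were named after their values were seen. Alternatives were DESeq2 1.42.0 and TMM scaling, totals without Rn45s, other pseudocounts, lengths and minima, and leaving out each library. Software was R 4.3.3 and Python 3.11.15.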

Additional observations from a re-analysis of the deposited data

How the results depend on the processing

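No paired analysis was possible because all libraries belong to 1 group. The 4 genes at 1 CPM or more were 4 under every scaling, at a minimum of 0.5 CPM and without each library in turn, and 3 at 5 CPM. Leaving out a library turned the order of neighbours that overlap: Hmga2 minus Arid3a ran from -0.028 (without library 1) to 0.14, Hmga1 minus Lin28a from -0.12 to 0.28, Lin28a minus Lin28b from -0.019 to 0.24, and so Lin28b minus Lin28a from -0.24 to 0.019. Arid3a minus Igf2bp3 was -0.52 with the longest transcript as length and -0.26 in CPM without length, and Hmga1 minus Lin28a -0.078 in CPM without length. Without library 3, Lin28b minus Igf2bp1 and Sox17 minus Sox7 became 0. The other contrasts kept the sign of their mean under all alternatives run, but with the longest transcript as length Arid3a minus Arid3b fell to 0.14 (SD 0.39, exact p = 1) and Hmga2 minus Arid3a rose to 0.76. Without 1 library the chi-square test called 6660 to 8709 genes, lowest without library 1. The edgeR spread test called 1 to 16 genes without 1 library (16 without library 1, 2 without library 3) and 16 over all genes with a count, and DESeq2 marked 30 dispersion outliers. Totals without Rn45s raised Igf2bp3 to 28.7 and Arid3a to 23.8 CPM. Depth limits Lin28a, Lin28b, Igf2bp1 and Sox17, whose levels lie under 3 counts in most libraries. Hmga1, with 1, 8 and 5 counts, is limited by depth and by the words it shares with other genes.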
